A study of Mus musculus with 6 samples.

Results

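The keratin genes of the mouse genome were examined for H3K4me3 and ASH2L peaks in embryonic stem cells. Members were the protein-coding genes of the GENCODE vM21 annotation of mm10 whose symbol is Krt followed by digits alone, which gave 49 genes of 21951 protein-coding genes. Of these, 26 belonged to type I and 23 to type II. A gene was called marked when at least 1 bp of a peak overlapped the stretch from 1000 bp upstream to 100 bp downstream of any of its annotated transcript starts.

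The data came from CUT&RUN, in which an antibody brings micrococcal nuclease to its target in permeabilised cells and the released fragments are sequenced. The 6 libraries were made from E14 mouse embryonic stem cells in 3 groups of 2: parental cells (labelled WT) with the HA tag as target, cells carrying HA-Ash2L with anti-HA, and the same HA-Ash2L cells with anti-H3K4me3. Both lines were kept in serum with LIF and received doxycycline for 48 h, which induced HA-Ash2L. The labels call HA-Ash2L a knock-in in one field and a transgene in another. By the methods, the line was made by transposon-based integration of the HA-tagged gene together with a doxycycline-responsive activator, and the line came from selected colonies. The labels give 1000000 cells for the HA libraries and 100000 cells for H3K4me3, whereas the methods give 1000000 cells for every experiment. No HA signal of the parental cells was analysed here. The peak lists are merged over the 2 libraries of a group, so every value below is a single number without replicate error, and no test between groups was made.

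For H3K4me3, 59927 peaks were listed (median 1453 bp), which took up 45.7% of 27328071 filtered tags. For ASH2L the number was 2464 (median 717 bp), with 0.398% of 25677963 filtered tags. The smallest peak had 19 tags in the H3K4me3 list and 17 in the ASH2L list. As a check of the cell type, 4 of 9 embryonic stem cell markers (Esrrb, Klf2, Tfcp2l1 and Zfp42) had an H3K4me3 peak at a promoter. The defining markers Pou5f1, Nanog and Sox2 had none, and their nearest peaks in the list lay 4213, 10597 and 25135 bp from a start. Dppa5a and Tdgf1 had none either, with the nearest peaks at 5696 and 13177 bp. Of markers of other cells, 3 of 4 for trophoblast (Cdx2, Elf5 and Eomes) and 4 of 5 for fibroblasts (Col1a1, Col1a2, Thy1 and Twist2) were marked. Since 68.4% of all protein-coding genes were marked, none of these counts tells which cells were present. None of these 18 genes had an ASH2L peak, and few would at the share of 7.69% over all protein-coding genes. A gene without a peak is therefore described only as unlisted, not as free of the mark, and the part of other cells in any peak was not tested.

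Keratins are intermediate filament proteins that form obligate pairs of a type I and a type II chain. KRT8 and KRT18 form the filaments of simple epithelia and are the first keratins made in the embryo, KRT5 and KRT14 those of basal cells of stratified epithelia, and KRT1 and KRT10 those of the layers above. Other members serve the inner root sheath and companion layer of the hair follicle, and the hair keratins harden the hair shaft. In the mouse the type I genes lie in a cluster on chromosome 11 and the type II genes in a cluster on chromosome 15, where Krt18 is the only type I gene, next to Krt8. H3K4me3, trimethylated lysine 4 of histone H3, marks promoters, above all CpG-rich ones. ASH2L is a core subunit shared by the MLL and SET1 complexes that deposit methylation at this lysine.

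RefSeq (GRCm38.p6) gave promoter sequences for 35 of the 49 member symbols. The upstream sequences of 7 members are printed from it, each ending just before the more upstream of the RefSeq and GENCODE starts. Capitals mark CG dinucleotides and the hexamer TATAAA. Krt8 (chr15:102004483-102004592, minus strand) and Krt18 (chr15:102028030-102028179, plus strand) are the simple epithelial pair. Krt12 (chr11:99422260-99422409, minus strand) and Krt2 (chr15:101818170-101818319, minus strand) carried narrow peaks of high fold enrichment. Krt28 (chr11:99374904-99375053, minus strand) was marked, whereas Krt25 (chr11:99322952-99323101, minus strand), which is of the same inner root sheath class, was not. Krt31 (chr11:100050552-100050701, minus strand) is a hair keratin gene far from any peak.
Krt8: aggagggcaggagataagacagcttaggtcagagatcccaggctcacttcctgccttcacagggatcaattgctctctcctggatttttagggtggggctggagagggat
Krt18: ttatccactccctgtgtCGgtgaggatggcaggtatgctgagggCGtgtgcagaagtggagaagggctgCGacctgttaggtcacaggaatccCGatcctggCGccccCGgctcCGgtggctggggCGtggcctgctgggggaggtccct
Krt12: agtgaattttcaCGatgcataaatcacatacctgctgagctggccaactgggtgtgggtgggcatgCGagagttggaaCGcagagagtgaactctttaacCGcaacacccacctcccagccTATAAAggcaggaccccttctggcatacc
Krt2: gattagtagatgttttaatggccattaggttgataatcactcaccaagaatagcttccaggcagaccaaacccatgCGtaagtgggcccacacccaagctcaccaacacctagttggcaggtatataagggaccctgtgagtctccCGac
Krt28: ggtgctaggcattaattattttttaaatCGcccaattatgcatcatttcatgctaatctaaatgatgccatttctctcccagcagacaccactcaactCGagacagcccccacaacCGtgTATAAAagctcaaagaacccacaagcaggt
Krt25: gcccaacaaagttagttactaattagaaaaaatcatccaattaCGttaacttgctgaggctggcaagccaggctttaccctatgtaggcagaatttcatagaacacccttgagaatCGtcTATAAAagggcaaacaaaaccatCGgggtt
Krt31: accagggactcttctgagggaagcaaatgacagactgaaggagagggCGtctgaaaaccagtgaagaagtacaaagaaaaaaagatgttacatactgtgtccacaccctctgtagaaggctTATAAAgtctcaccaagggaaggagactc

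In these stretches Krt18 had 8 CG dinucleotides and Krt8 had 0 in its 110 bases, although both genes were marked. The Krt8 stretch ended 140 bp upstream of its RefSeq start, and the Krt18 stretch 36 bp upstream of its own. The bases next to those RefSeq starts were thus not counted. Within 500 bp on either side of the coding start, Krt8 had 31 CG dinucleotides and Krt18 had 46. Krt28 and Krt25 had 3 CG dinucleotides each and TATAAA with its first base 30 bases before the start in both, yet only Krt28 was marked. Krt12 had TATAAA 29 bases before its start with 4 CG dinucleotides. Krt31 had it at the same distance with 1 CG dinucleotide, and its start lay 56232 bp from an H3K4me3 peak. Krt2 had 2 CG dinucleotides and no TATAAA. Only the exact hexamer was counted, and the tatataag in the Krt2 stretch is not a match.

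Promoters of 25 of the 49 keratin genes overlapped an H3K4me3 peak (51.0%), whereas 68.4% of all protein-coding genes did (15016 of 21951). The mark was not limited to the simple epithelial pair, since members of both clusters had peaks. For type I the number was 12 of 26 (46.2%) and for type II 13 of 23 (56.5%). The 25 genes had 26 peaks, because Krt14 had 2. No keratin promoter overlapped an ASH2L peak (0 of 49), against 7.69% of all protein-coding genes (1687 of 21951). All 49 genes lie in 2 stretches without ASH2L peaks, so they are not independent of each other in this count. The share of marked keratin genes was thus below the background for H3K4me3, and no test of either difference was made.

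By class, 5 of 6 simple epithelial keratin genes were marked (83.3%) and 12 of 20 genes of stratified epithelia (60%). So were 5 of 8 genes of the inner root sheath and companion layer (62.5%) and 2 of 13 hair keratin genes (15.4%). The share over all protein-coding genes was 68.4%, and 44.9% over those with an observed/expected CpG ratio under 0.6. The stratified and root sheath shares lay between these values. All 7 type I hair keratin genes (Krt31, Krt32, Krt34, Krt35, Krt36, Krt39 and Krt40) were unlisted, and so were the type II hair keratin genes Krt82, Krt83, Krt84 and Krt86. Krt222, a keratin-like gene, was marked, and Krt88, for which no class was assigned, was not. The hair class thus had the lowest share and the simple class the highest, with few genes in each. All 7 type I hair genes lay in the same run of neighbouring unlisted genes, so they are not independent of each other. With only the 5'-most start of each gene, the simple class lost Krt7 and Krt19 and the root sheath class lost none. The simple share was then no longer the highest.

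Among the simple epithelial genes, Krt8 (ENSMUSG00000049382.10, minus strand, chr15:101996698-102004482) had a peak at chr15:102001787-102005104 that covered its start. The Krt8 peak was 3318 bp wide and held 398 tags (exact Poisson 95% interval 359.9 to 439.1, counting error only) at 5.49-fold enrichment over the local background. Its summit lay 1175 bp inside the gene, and the start of the lincRNA gene Gm36026 also fell within it. Krt18 (ENSMUSG00000023043.7, plus strand, chr15:102028180-102032027) had a peak at chr15:102027388-102029110 with its summit 23 bp upstream of the start. The Krt18 peak was 1723 bp wide and held 214 tags (186.3 to 244.7) at 6.22-fold enrichment. The tag intervals of the pair did not overlap, but per kb of peak the values were close, at 119.95 tags for Krt8 and 124.2 for Krt18.

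Krt19, the type I keratin gene of simple and glandular epithelia, had a peak of 2079 bp with 240 tags and 8.42-fold enrichment. Krt7, the type II gene of ductal epithelia, had a peak of 1651 bp with 181 tags and 7.52-fold enrichment. It began 490 bp inside the gene from the 5'-most coding start and covered the internal start used by RefSeq, and the antisense gene Gm671 also started inside it. Krt20, a gene of intestinal epithelium, had a smaller peak of 965 bp with 54 tags and 9.88-fold enrichment. Krt23 was the unlisted member of this class, and its nearest H3K4me3 peak lay 54559 bp away. The 5 peaks of the simple class thus ran from 54 to 398 tags.

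The basal pair of stratified epithelia had small peaks. Krt5 had a peak of 628 bp with 30 tags (20.2 to 42.8) and 6.08-fold enrichment, the narrowest and the lowest in tags of the 26. Krt14 had a peak of 906 bp over its start with 53 tags and 4.08-fold enrichment. A second Krt14 peak, of 1742 bp with 91 tags and 4.88-fold enrichment, covered an internal start inside the gene. Krt15, another basal keratin gene, had 39 tags in a peak of 863 bp at 6.08-fold enrichment, and that peak ended 532 bp upstream of the start without covering it.

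The pair of the upper epidermal layers had larger peaks that did not cover the 5'-most coding start. For Krt10 a peak of 2957 bp with 423 tags and 7.61-fold enrichment began 1611 bp inside the gene, at an internal coding start. The antisense gene Gm11940 also started within the Krt10 peak. For Krt1 a peak of 1944 bp with 221 tags and 10.58-fold enrichment began 3920 bp inside the gene, at the start of a transcript annotated as retained intron. Whether these peaks belong to the keratin genes or to other transcripts was not tested. Krt2, a gene of the upper epidermis, differed in that its peak of 1251 bp lay over the start, with 120 tags and 13.57-fold enrichment.

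Other genes of stratified epithelia varied widely. Krt17, a gene of skin appendages, had the widest peak and the most tags of the family, with 3701 bp, 488 tags (445.7 to 533.3) and 5.1-fold enrichment, and its summit lay 1186 bp upstream of the start. Its neighbour Krt42 had 148 tags in a peak of 1660 bp that ended 602 bp upstream of the start, at 3.18-fold enrichment, the lowest of the 26. Krt12, the type I keratin gene of the cornea, had 87 tags in 1107 bp at 13.35-fold enrichment. Krt4, the type II gene of oral and oesophageal mucosa, had 146 tags in 1222 bp at 10.54-fold enrichment. Krt79 had 57 tags in 1093 bp at 7.94-fold enrichment, and Krt80 had 69 tags in 1256 bp at 5.13-fold enrichment. The unlisted genes of this class were Krt9, Krt13, Krt16, Krt24, Krt76, Krt77, Krt78 and Krt90.

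Of 4 textbook partner pairs, chosen after the values were seen, Krt8 with Krt18, Krt5 with Krt14 and Krt1 with Krt10 had both genes marked. In the fourth pair Krt4 was marked, whereas the nearest peak to Krt13 lay 14894 bp from a start. Since 68.4% of all protein-coding genes were marked, 4 chosen pairs do not show whether partners were marked together. With a p-value score of 100 or more, Krt5 and Krt14 were both lost, and with only the 5'-most start of each gene, Krt1 and Krt10 were.

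Genes of the inner root sheath, the follicle layer that moulds the growing hair, had narrow peaks over their starts. Krt71 had 120 tags in 1408 bp at 11.46-fold enrichment and Krt72 had 79 tags in 1165 bp at 8.74-fold. Krt27 had 61 tags in 1001 bp at 8.36-fold, and Krt28 had 66 tags in 1043 bp at 6.23-fold. Krt75, the gene of the companion layer, had 60 tags in 1026 bp at 9.12-fold enrichment. The other genes of this class, Krt25, Krt26 and Krt73, were unlisted, with the nearest peaks 27605, 12590 and 14860 bp away. The 5 peaks of the class were alike in width (1001 to 1408 bp).

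Of the hair keratin genes, only Krt87 and Krt81 were marked. Krt87 had 97 tags (78.7 to 118.3) in 984 bp at 14.16-fold enrichment, the highest of the family, with its summit 49 bp inside the gene. Krt81 had 70 tags in 1024 bp at 11.56-fold enrichment, with its summit 11 bp inside the gene. Both are type II genes that lie near each other on chromosome 15, with the unlisted Krt88 between them. Krt222 had 165 tags in 1591 bp at 7.44-fold enrichment.

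**Figure D1:**
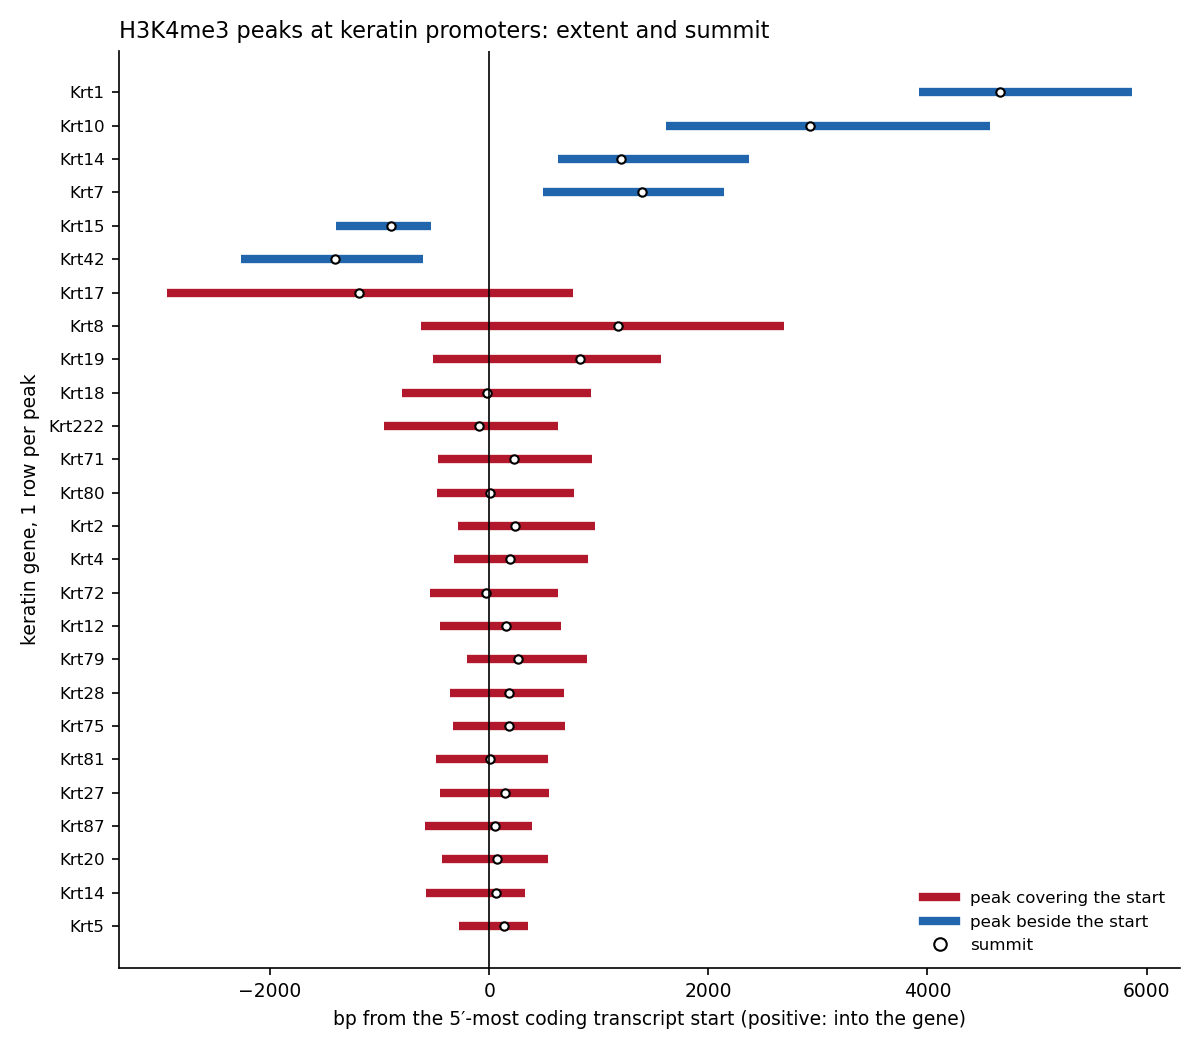
Extent of each H3K4me3 peak at a keratin promoter, in bp from the 5'-most coding transcript start of its gene, with 1 row per peak. Red bars cover the start (20 peaks), blue bars lie beside it (6 peaks), and open circles are summits. Most red bars are narrow and centred near the start, whereas the Krt17, Krt8 and Krt19 bars are wider and have summits far from it.

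The 5'-most coding start lay inside a peak for 20 of the 49 genes, against 62.8% of protein-coding genes (13722 of 21853). In these 20 genes the summit lay downstream of the start in 16 and within 300 bp of it in 17. The median summit was 140 bp inside the gene, and the median for all 13722 genes was 25 bp, with 55.5% of summits downstream and 67.7% within 300 bp. The peaks reached a median of 472.5 bp upstream and 690.5 bp downstream of keratin starts, compared with 1092 and 1707 bp over all the genes. The keratin peaks were thus shorter on both sides, with a summit slightly further into the gene.

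Against the 16735 H3K4me3 peaks at protein-coding promoters, the keratin peaks were narrow and low in tags. The median width was 1236.5 bp for the 26 keratin peaks and 2647 bp for all promoter peaks, and 23 of the 26 were below that median. Tags had a median of 94 in the keratin peaks and 393 in all promoter peaks, and again 23 of the 26 were below. Fold enrichment went the other way, since 16 of the 26 were above the median of 6.41 for all promoter peaks. The median keratin peak stood at percentile 9.95 for tags and at percentile 70.3 for fold enrichment.

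The contrast was wide in several members. Krt12 stood at percentile 8.9 for tags and 98.5 for fold enrichment, Krt81 at 6.8 and 95.6, Krt87 at 10.4 and 99.1, and Krt2 at 13.1 and 98.7. Krt8 stood at 50.7 for tags and 34.3 for fold enrichment, and Krt18 at 24.9 and 47.0. Only Krt8, Krt10 and Krt17 had more tags than the median promoter peak. High fold enrichment was shared by narrow promoter peaks in general: the 2483 promoter peaks under 1500 bp had a median of 76 tags and 7.49-fold enrichment, and 26.6% of them reached 10-fold. For comparison, the 16 keratin peaks under 1500 bp had a median of 67.5 tags and 8.93-fold enrichment, and 6 of them (37.5%) reached 10-fold. Fold enrichment was measured over the surrounding signal of the same libraries, so it compares a peak with its own neighbourhood and is not a level.

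**Figure D2:**
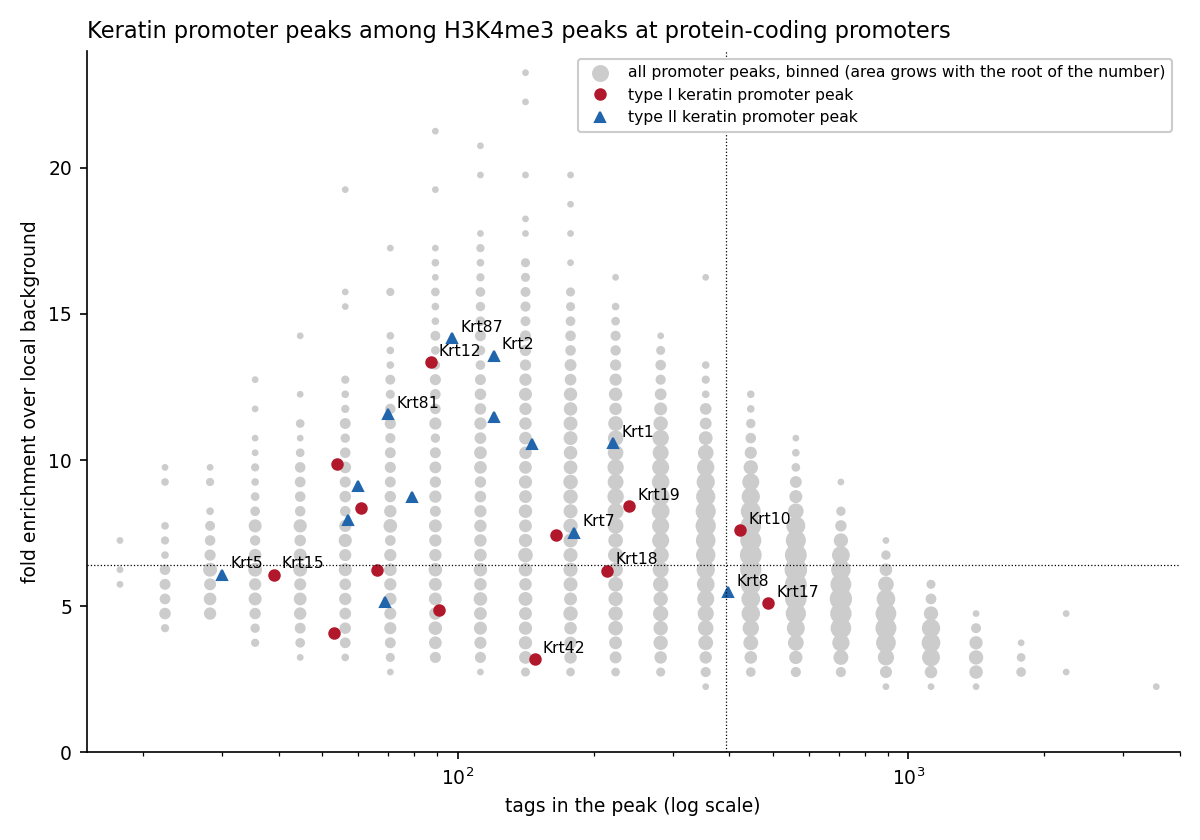
Tags per peak (x axis, log scale) against fold enrichment over local background (y axis) for the 26 keratin promoter peaks, with type I as red circles and type II as blue triangles. Grey dots are the 16735 peaks at protein-coding promoters in bins, and dotted lines are their medians (393 tags and 6.41-fold). All keratin peaks other than those of Krt8, Krt10 and Krt17 lie left of the vertical line.

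The 24 unlisted members formed 9 runs along the clusters, of which 5 were a single gene (Krt9, Krt16, Krt88, Krt73 and Krt78). The longest run was 9 consecutive type I members from Krt23 to Krt13, over 643.593 kb, which includes all 7 type I hair keratin genes and the block of keratin-associated protein genes. The stretches from Krt23 to Krt40 (65.185 kb) and from Krt34 to Krt13 (84.22 kb) held 0 H3K4me3 peaks. Between them the block of keratin-associated protein genes (494.188 kb) held 5, or 1.01 per 100 kb. On either side of the run the density was higher, with 6.33 peaks per 100 kb from Krt222 to Krt20 (13 peaks) and 7.96 from Krt15 to Krt42 (11 peaks). The run was cut at marked genes, so part of this difference follows from how the stretches were chosen. In the type II cluster the longest run was 5 members from Krt86 to Krt90, over 89.473 kb.

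Over its whole length the type I cluster (chr11:99232761-100269871) held 29 H3K4me3 peaks, or 2.80 per 100 kb, and 3.29% of its bases lay in peaks. The type II cluster (chr15:101347444-102032027) held 32 peaks, or 4.67 per 100 kb, and 6.25% of its bases lay in peaks. The nuclear genome had 2.20 peaks per 100 kb and 4.11% of its bases in peaks, and chromosomes 11 and 15 had 3.53 and 2.42 peaks per 100 kb, with 7.39% and 4.69% of their bases in peaks. The type II cluster was thus denser than its chromosome. The type I cluster was less dense than its own and had a smaller share of bases in peaks. With 50000 bp added at both ends its density was 3.52 peaks per 100 kb, about that of chromosome 11, so the difference in density rests on where the cluster is taken to end.

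**Figure D3:**
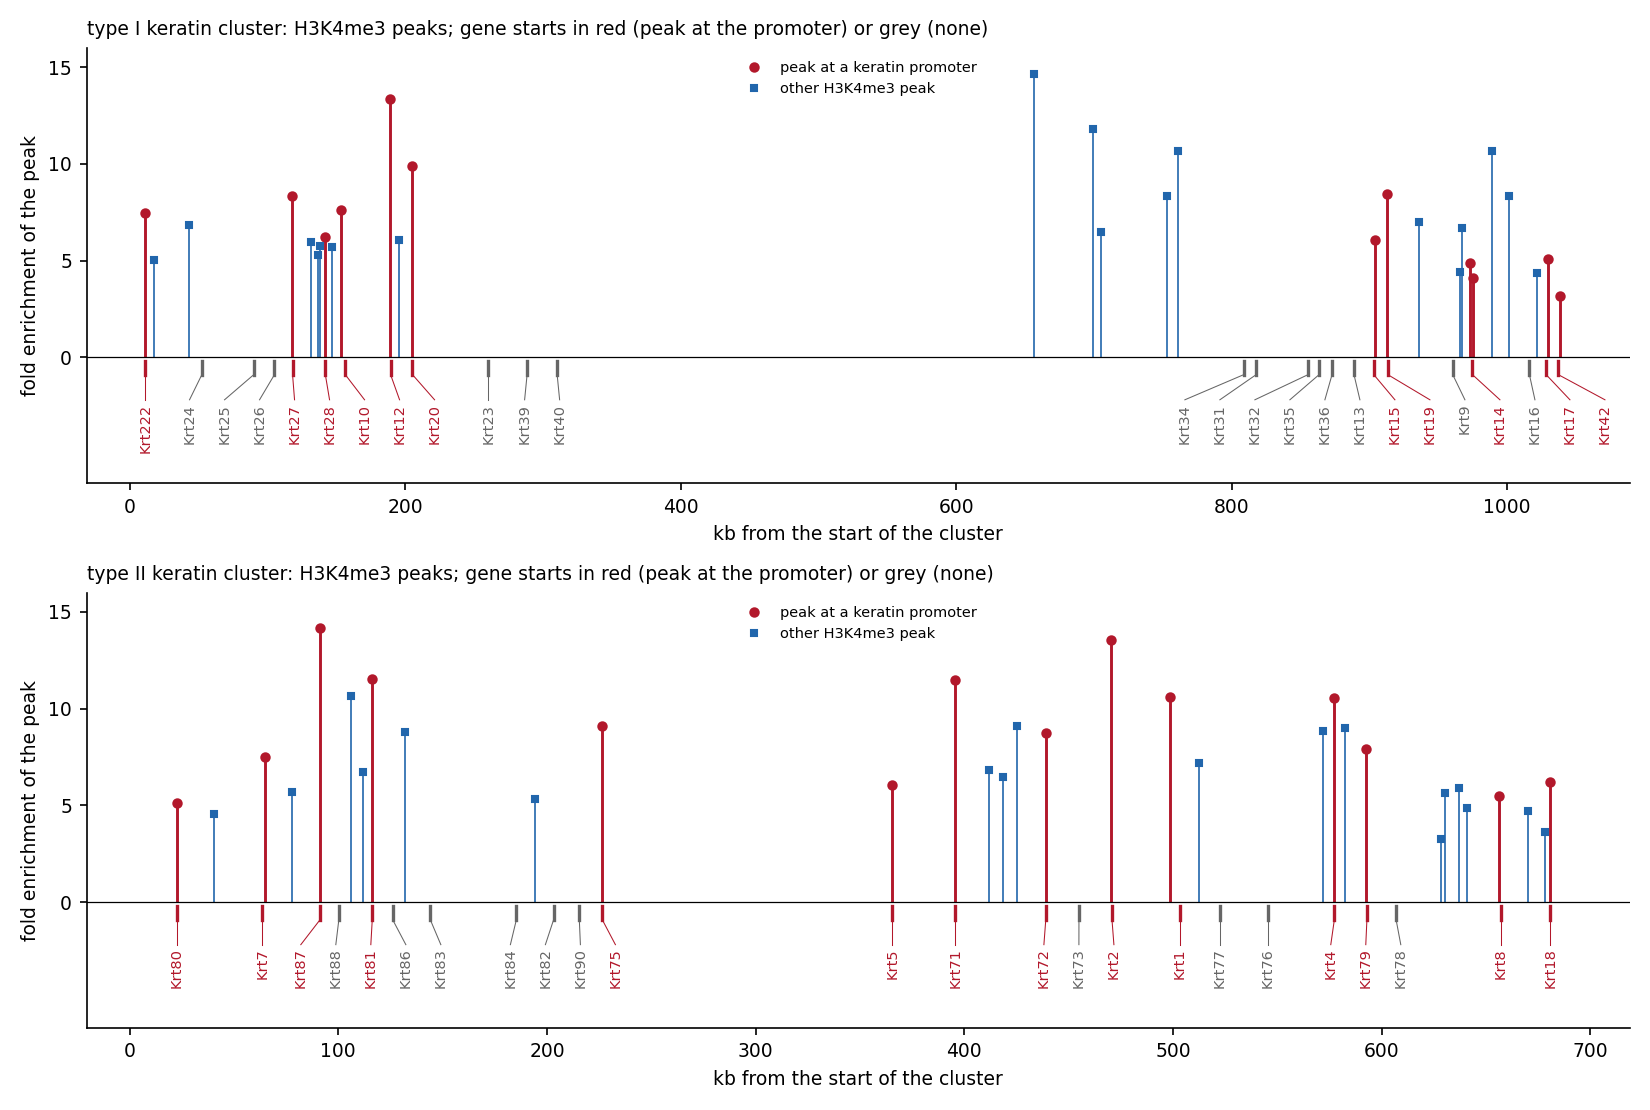
H3K4me3 peaks along the type I and type II keratin clusters, plotted as fold enrichment against the distance in kb from the start of the cluster. Red stems are peaks at keratin promoters and blue stems are other peaks. Ticks below the line are gene starts, red where marked and grey where not. Grey genes from Krt23 to Krt13 in the upper panel form the run of 9.

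The unlisted genes lay well outside the promoter window around the peaks. Measured from transcript starts, the unlisted members nearest to an H3K4me3 peak were Krt9 (4854 bp), Krt16 (4994 bp) and Krt88 (5280 bp). The farthest were Krt40 (104580 bp), Krt39 (82680 bp) and Krt31 (56232 bp). The median over the 24 was 14311.5 bp. Peaks did overlap the bodies of 4 unlisted genes, Krt77, Krt82, Krt86 and Krt88, away from their starts. No unlisted gene was close to the edge of the promoter window, and widening it to 2500 bp on both sides of each start left the count at 25.

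No ASH2L peak lay in either cluster. The nearest ASH2L peak was at least 100 kb from each of the 49 genes, from 107602 bp for Krt18 to 519738 bp for Krt75, with a median of 317740 bp. Of all protein-coding genes, 65.8% were that far from an ASH2L peak, and their median distance was 207002 bp. The type I cluster lay between an ASH2L peak at the Igfbp4 promoter, 191056 bp to its left, and one at the Fkbp10 and P3h4 promoters, 144110 bp to its right. For the type II cluster the flanking peaks were 293278 bp to the left, at no coding promoter, and 103755 bp to the right, at the Spryd3 promoter. The ASH2L-free stretches were 1372.3 and 1081.6 kb long, and 19.0% and 23.1% of the 2442 gaps between neighbouring ASH2L peaks of a chromosome were as long or longer. Long stretches without ASH2L peaks were common in so short a list.

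**Figure D4:**
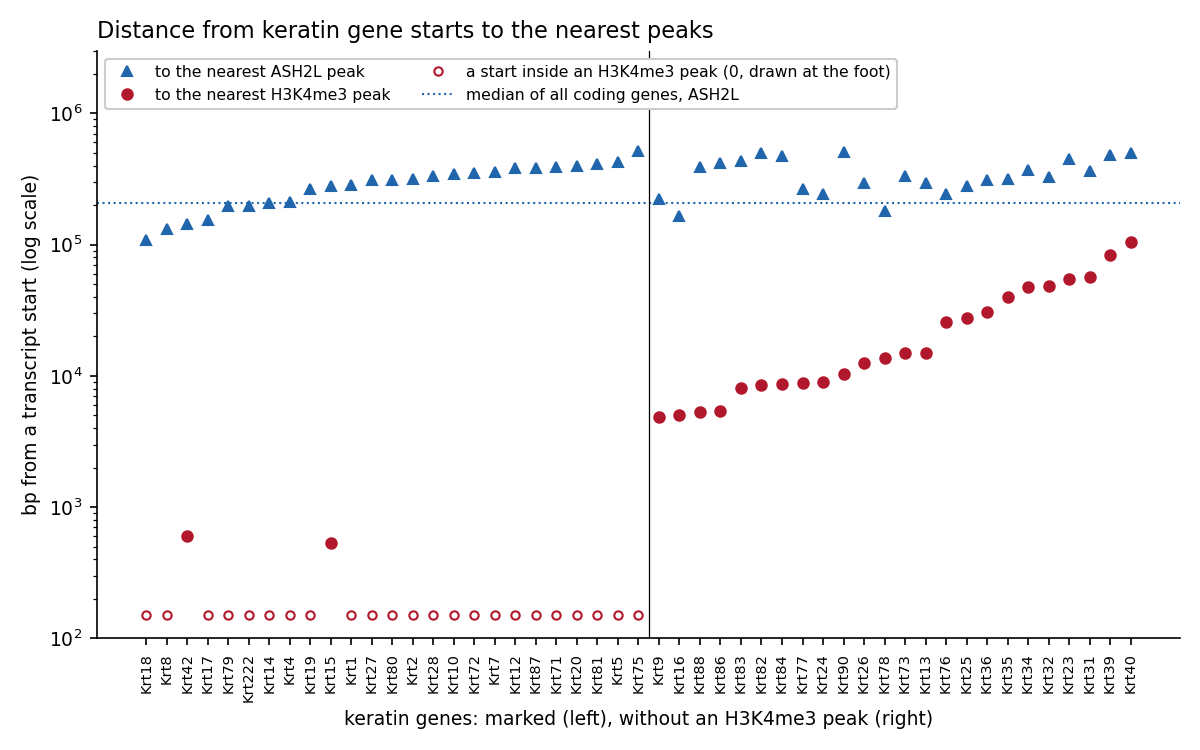
Distance in bp (log scale) from the transcript starts of each keratin gene to the nearest H3K4me3 peak (red) and the nearest ASH2L peak (blue triangles), with marked genes on the left. Open circles at the foot are genes with a start inside an H3K4me3 peak (distance 0). All triangles are above 100 kb, and the red points of unlisted genes begin at 4854 bp.

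Keratin starts were poor in CpG. Within 500 bp on either side of the coding start, the observed/expected CpG ratio ran from 0.090 (Krt7) to 0.584 (Krt87) with a median of 0.325, against a median of 0.561 for protein-coding genes. All 49 genes were below 0.6, whereas 46.6% of protein-coding genes reached that value. Among protein-coding genes below 0.6, 44.9% had an H3K4me3 peak at a promoter (5235 of 11672), compared with 95.5% of those at 0.6 or more (9721 of 10181). The keratin share of 51.0% was near that of other CpG-poor genes and far below that of CpG-rich genes.

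Within the family, marked genes had a median ratio of 0.373 and unlisted genes 0.300, and the ranges overlapped. Krt87 (0.584), Krt28 (0.555), Krt18 (0.547) and Krt27 (0.531) had the highest ratios, and each was marked. The next were Krt25 (0.498) and Krt26 (0.494), which were unlisted. The low value of Krt7 belongs to a 5'-most coding start that its peak does not cover, and the 150 bases before the RefSeq start inside that peak held 10 CG dinucleotides. Krt5 (0.272) and Krt14 (0.292) were below the family median, although marked, and Krt8 (0.379) was near the median of marked genes.

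**Figure D5:**
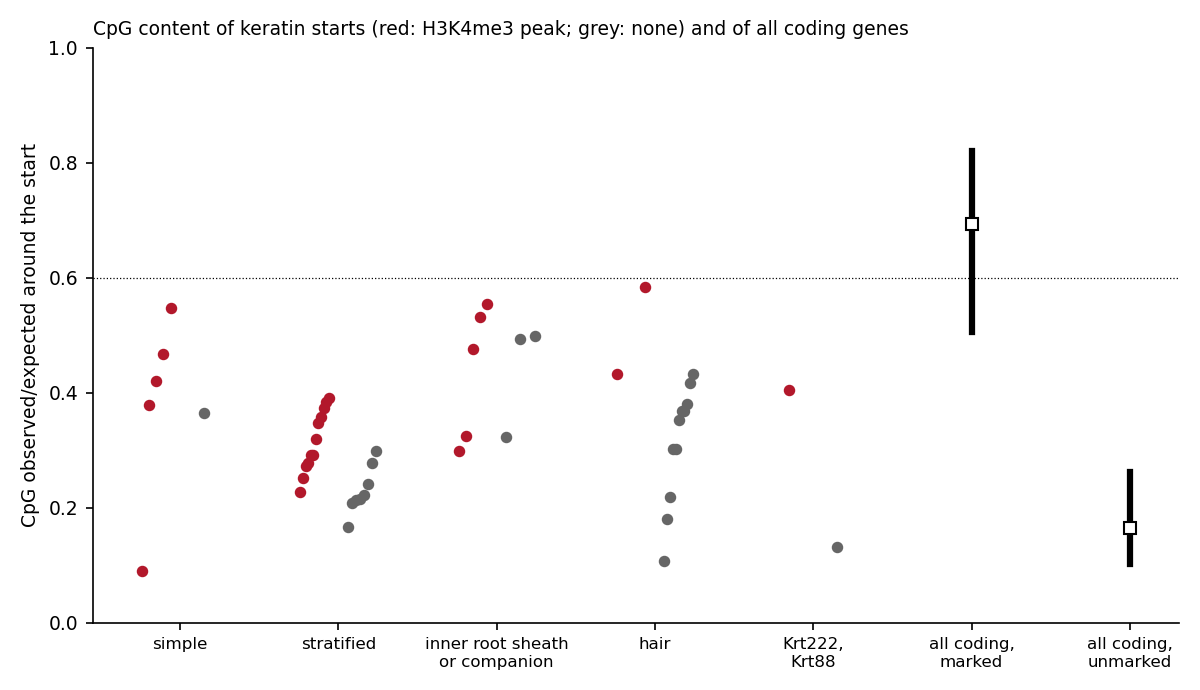
Observed/expected CpG ratio within 500 bp of the coding start, by keratin class, with marked genes in red and unlisted genes in grey. Black bars are the quartiles and white squares the medians of all protein-coding genes with and without H3K4me3. Every keratin gene is below the dotted line at 0.6, and the colours overlap within the simple, stratified and root sheath classes and meet in the hair class.

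Short motifs were counted near the same starts. TATAAA, the TATA box hexamer, lay within bases 40 to 20 upstream on the coding strand in 14 of 49 keratin genes (28.6%) and in 2.26% of protein-coding genes. It was found in 7 of 25 marked (28.0%) and 7 of 24 unlisted keratin genes (29.2%). Over all protein-coding genes it was in 1.04% of marked and 4.92% of unlisted ones. The keratin split depends on the start used. Before their RefSeq starts, the unlisted Krt32, Krt40 and Krt73 had TATAAA at 29, 29 and 30 bases, uncounted with the GENCODE starts. The marked Krt27 had it at 15 bases, outside the window. From 250 bases upstream to 50 downstream, TATAAA was in 10 of 25 marked and 13 of 24 unlisted keratin genes. Over all protein-coding genes that was 7.66% of marked and 23.4% of unlisted ones. GGGCGG, the GC box hexamer, was searched on both strands from 250 bases upstream to 50 bases downstream. It occurred in 7 members (Krt14, Krt19, Krt222, Krt75, Krt80, Krt81 and Krt87), and all 7 were marked, as were 8833 of the 9573 protein-coding genes that had it. Of all protein-coding genes, 43.8% had it, and 59.1% of marked and 10.7% of unlisted ones. GCCNNNGGC, a core of the AP-2 motif, was in 12 members (24.5%), of which 9 were marked and 3 unlisted, and in 18.3% of protein-coding genes. Of the 3995 protein-coding genes that had it, 3452 were marked. It was in 23.1% of marked and 7.87% of unlisted protein-coding genes. GGGCGG and GCCNNNGGC matches can share bases, TATAAA shares none with either, and a match describes letters only.

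Related gene lists were read the same way, against the 68.4% (H3K4me3) and 7.69% (ASH2L) of all protein-coding genes. Keratin-associated protein genes, whose products cross-link hair keratins, had an H3K4me3 peak in 3 of 57 cases (Krtap10-10, Krtap17-1 and Krtap28-13), and 1 of 57 had an ASH2L peak. That gene was Krtap10-4, with 28 tags at 4.57-fold enrichment and a p-value score of 52.7, near the cutoff of 50. Within the type I cluster 1 of 23 was marked (Krtap17-1, 75 tags, 10.64-fold). The letter-suffixed keratin genes Krt6a, Krt6b, Krt33a and Krt33b were unlisted. Hair shaft genes of both families were thus mostly without peaks.

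Other intermediate filament genes were marked in 14 of 16 cases (87.5%, against 68.4% of all protein-coding genes), with Bfsp2 and Ina as the exceptions. Vim, the vimentin gene, had 787 tags at 4.13-fold enrichment in a peak of 4799 bp, and Nes, the nestin gene, 933 tags at 4.55-fold in 6294 bp. Nefh and Prph, both neuronal filament genes, also had ASH2L peaks, with 60 tags (3.47-fold) and 32 tags (3.61-fold). Their p-value scores of 59.77 and 50.08 were near the cutoff of 50. Keratin linker and desmosome genes were marked in 16 of 19 cases (84.2%), without Dsc1, Dsg1a and Dsg3. Regulators of epithelial genes were marked in 13 of 15 cases (86.7%), without Foxn1 and Trp63. Cornified envelope genes were marked in 2 of 10 cases (Tgm1 and Tgm3), below that background. None of these 3 lists had an ASH2L peak. Keratin genes stood between the linker and cornified envelope lists in their share of marked genes.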

How the data were processed

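Per the submitters' processing notes and the methods, paired-end reads were aligned to mm10 with Bowtie2, handled with SAMtools 1.5 and bedtools, duplicate libraries were merged, and MACS (1.4.3 per the file headers) called peaks with a p-value cutoff of 1e-05, 1 tag per position and no control. The methods state that only short fragments were kept, whereas the headers give tag sizes of 151 (ASH2L) and 142 bases (H3K4me3), so the effect of that filter cannot be told here. The deposited tag counts per peak are whole numbers, the deposited fold enrichment is a ratio to the local background, and the deposited p-value score is 50 at the cutoff. Treatment of reads that map to more than 1 keratin paralogue is not given in the sources used here. Overlaps, distances and sequence counts were computed with Python 3.11.15, pandas 2.3.3 and pysam 0.24.0 on GENCODE vM21, RefSeq and GRCm38.p6, and the overlap code was tested on simulated data. Percentiles are over peaks at protein-coding promoters. Sequence measures cover the 21853 genes with a protein-coding transcript on a nuclear chromosome that held peaks. Every marked member was named with its values, and unlisted members by class, with the 3 nearest to and 3 farthest from a peak. Members and lists were chosen with earlier results of these data known. Alternatives changed the window, the overlap, the peak threshold and the transcripts.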

Additional observations from a re-analysis of the deposited data

How the results depend on the processing

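Of 60 values recomputed under alternatives, 49 stayed within 1.5 times the reported value in either direction (or at 0) and 11 moved by more. With only peaks at or above the median fold enrichment, 16 keratin promoters were marked, 6 of them type I, and Krt8 and Krt18 were lost together with Krt5, Krt14, Krt15, Krt17, Krt28, Krt42 and Krt80. Protein-coding genes then stood at 36.4% for H3K4me3 and 3.73% for ASH2L, and peaks per 100 kb at 1.54 (type I cluster) and 2.78 (type II cluster). With a p-value score of 100 or more, ASH2L fell to 0.934% of protein-coding genes and the type I density to 1.54. With the peak midpoint required in the window, 13 keratin promoters were marked, 5 of them type II, and 37.2% of protein-coding genes. The count of keratin promoters stayed between 21 and 25 under the other alternatives, and ASH2L stayed at 0 under all 9. A score of 100 or more lost Krt5, Krt14, Krt15 and Krt42, the 5'-most start alone lost Krt1, Krt7, Krt10 and Krt19, RefSeq starts lost Krt1 and Krt10, coding transcripts alone lost Krt1, and a start base inside a peak lost Krt15 and Krt42. No paired analysis was possible because the replicates are merged in both lists. For the same reason no replicate could be left out. Peaks below 19 tags (H3K4me3) or 17 tags (ASH2L) were not listed, which limits what an unlisted promoter shows.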

Other observations

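In the type I cluster 16 of 29 H3K4me3 peaks overlapped no annotated promoter, with a median of 44.5 tags, and in the type II cluster 17 of 32, with a median of 60 tags. Over the whole genome 16735 of 59927 H3K4me3 peaks were at coding promoters, compared with 12 of 29 and 14 of 32 here, so peaks away from coding promoters are no feature of the clusters. Krt28 was overlapped by 4 peaks, 1 at its promoter and 3 elsewhere. Among genes without a promoter peak, Krt77 was overlapped by a peak of 2332 bp with 340 tags at 7.2-fold enrichment, more tags than the Krt18 peak. Krt86 was overlapped by a peak of 83 tags at 8.82-fold enrichment that overlapped the promoter of the noncoding gene Gm49501. In the block of keratin-associated protein genes, the peak at chr11:99888819-99889784 overlapped no annotated promoter and had 114 tags at 14.62-fold enrichment, above the value of Krt87. Between the divergently transcribed Krt8 and Krt18 lay further peaks of 2559 bp (175 tags, 4.71-fold) and 1997 bp (199 tags, 3.63-fold). These examples were chosen after their values were seen.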
